A study of Mus musculus with 27 samples.

Results

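Day 14 after volumetric muscle loss (VML) was compared with day 7 in the tibialis anterior muscle of the mouse. The comparison took the samples labelled day 14 (n = 6) and day 7 (n = 6), 12 of the 27 samples of the series, and asked which genes differed between these times. All samples came from C57BL/6 mice, male and 8 weeks old, and both groups had lost 40% of the muscle by excision. The other groups, uninjured (n = 5), day 3 (n = 5) and day 21 (n = 5), entered the same fit and are used as reference levels. The methods describe excision on both sides and the public record excision on 1 side, and the labels do not settle which. The labels also do not say whether samples are separate mice, so that p-values measure the spread between samples, which may be partly technical. Samples from the same mouse would not be independent, and p-values could then be too small. The spread between samples was pooled within groups over all 27 samples and not taken from the 12 alone. Messenger RNA was sequenced and given as FPKM, which scales fragments to gene length and to a denominator per sample. That denominator was not the sample's own total of reads on genes. It was 0.810 to 1.44 times this total at day 7 and 0.810 to 1.33 times at day 14. Of 54532 genes, 14630 reached an FPKM of 0.5 in 5 or more samples and were compared on the scale log2(FPKM + 1), on which differences of genes with low FPKM are understated. In bulk muscle, fewer cells of a type and less RNA per cell cannot be told apart.

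After muscle is lost, neutrophils and macrophages clear debris, fibroblasts are activated and lay down collagens, fibronectin and matricellular proteins, which sit in the matrix and signal to cells, and muscle stem cells build new fibres that first carry embryonic contractile proteins. In small injuries the provisional matrix is later dismantled, whereas after VML a scar remains. Muscle also has its own circadian clock, in which the transcription factors Clock and Arntl drive Per, Cry, Nr1d1, Dbp and Ciart, whose products feed back on the same loop, so that their mRNA cycles over the day.

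Between day 7 and day 14, 49 genes passed the test (limma, Benjamini-Hochberg adjusted p below 0.05), which is 0.335% of the genes tested. Of these 17 were higher at day 14 (0.116%) and 32 were lower (0.219%). The genes that rose included the clock genes Dbp, Ciart and Nr1d1 and Ucp3, a mitochondrial carrier of skeletal muscle. The genes that fell included Cthrc1, Lrrc15, Fn1 and Thbs2, which encode proteins of activated fibroblasts and of the matrix. At an unadjusted p below 0.05, 717 genes were higher (4.9%) and 1104 lower (7.55%), and over all tested genes the mean was higher at day 14 in 46.8% and lower in 53.2%, with a median difference of -0.018. When each sample's FPKM was brought to 1 common sum, 1 gene was called higher and 4 lower, and with that sum taken without the mitochondrial genome, chosen after seeing the data, 6 higher and 5 lower. With limma on the 12 samples alone, 5 genes were called higher and 0 lower. With the samples' own totals of reads 7 were called higher and 10 lower, 15 of them among the 49. In 76 genes (0.519%) the 6 values of one day lay wholly above those of the other. Such separation was seen in 8 of the 17 genes that rose and in 13 of the 32 that fell.

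Some libraries stood apart within day 7. On the first principal component of all 27 samples day 7 replicate 5 lay at 72.4, replicates 3 and 6 at -19.9 and -22.3, and the day 14 samples between -18.5 and 10.2. Replicate 5 held the most macrophage mRNA, with a summed FPKM of 4304 over 22 macrophage genes against 130.0 to 1053 in the other day 7 samples, and the most of 24 genes of mitosis, 158 against 13.8 to 30.4. Replicates 3 and 6 were near the uninjured muscles for the genes that muscle induces when it loses its nerve or regenerates: 10 such genes summed to 21.3 and 27, against 14.1 to 21.1 in uninjured muscle and 195 to 362 in the other day 7 samples. Krt18, a keratin, was at 0.0408 and 2.29 FPKM there, and at 2.0 in replicate 5, against 91.8 to 381 in the other 3. For 11 Schwann cell genes, which mark nerve sheath, replicate 6 held 405 and replicate 3 75.9, against 13.4 to 27 in the other day 7 samples. Fibrillar collagens were above the uninjured range (46.1 to 102) in all 6, at 294 to 1246. Without day 7 replicates 3, 5 and 6 together, a choice made after seeing the data, 141 genes were called (0.964%), 27 higher (0.185%) and 114 lower (0.779%). All 49 genes kept their direction, and 5 of the 17 and 19 of the 32 were among those called. Without replicate 6 alone, 151 were called (1.03%), 113 of them lower (0.772%), and without replicate 5 alone 21 (0.144%), 11 of them lower (0.0752%).

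**Figure D1:**
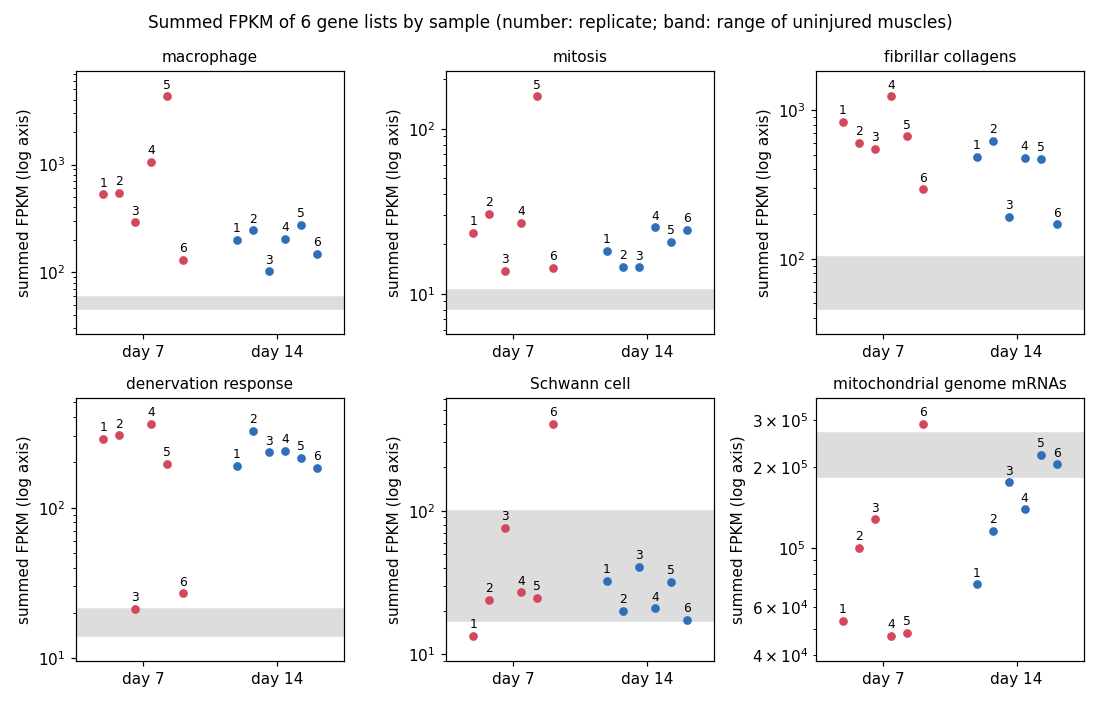
Summed FPKM (log axis) of the members of 6 gene lists in each day 7 (red) and day 14 (blue) sample, with replicate numbers, and the range of the 5 uninjured muscles as a grey band. Day 7 replicate 5 holds the most macrophage and mitosis mRNA, and replicates 3 and 6 lie near the band for the denervation response, unlike all 6 day 14 samples.

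Acta1, skeletal muscle actin, marked every sample as muscle, with FPKM of 13042 to 29739 at day 7 and 14028 to 33428 at day 14. Libraries held 15382081 to 24436763 reads on genes at day 7 and 14555887 to 19930123 at day 14, and 7.94 to 28.4% and 12.3 to 28.5% of these came from the mitochondrial genome. Sequencing did not keep the strand, so overlapping genes on opposite strands cannot be told apart. Among called genes this concerns Dbp and Sphk2, Ciart and C920021L13Rik, Nr1d1 and Thra, Fhod1 and Tmem208, and Prtn3 and Plppr3. Gm13583 with Pla2r1 and Mdm4 with Gm29257 are further such pairs, and the list is not complete. Plppr3 differed by -0.38 (limma adjusted p = 0.230). Gm12185 and Gm48583 are also concerned, as they lie over other genes of the same strand.

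The circadian clock genes Ciart and Dbp had the smallest adjusted p-values of the comparison. Dbp, a transcription factor that carries the clock's output to metabolic genes (chr7:45705088-45710203 on GRCm38), had FPKM of 10.4, 19.1 and 24.6 at day 7 and 42.8, 49.2 and 59.3 at day 14 (lowest, median and highest). Every day 14 sample was above every day 7 sample. The difference was 1.42 ± 0.19 (SE) on the log2(FPKM + 1) scale (limma adjusted p = 0.000484). Uninjured muscles, at 23 to 28.9, lay below the day 14 samples as well, and day 21 samples held 38.2 to 45.7. Dbp overlaps Sphk2 on the other strand, whose mean FPKM was 4.66 at day 7 and 3.33 at day 14 (limma adjusted p = 0.269).

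Ciart, a repressor of the Clock and Arntl pair (chr3:95878503-95882251), was lower in abundance, with FPKM of 0.528, 1.20 and 1.96 at day 7 and 2.94, 4.62 and 5.40 at day 14, from 27 to 201 reads. Its groups were again separate, and the difference was 1.35 ± 0.17 (SE) (limma adjusted p = 0.000318), the smallest adjusted p of all genes. Nr1d1, the nuclear receptor REV-ERB alpha that represses Arntl (chr11:98767932-98775333), had FPKM of 5.69, 16.9 and 21.4 at day 7 and 24.6, 31.8 and 34.9 at day 14. It too rose without overlap, by 1.10 ± 0.22 (SE) (limma adjusted p = 0.0238). Unlike Dbp and Ciart it stayed below the uninjured muscles, which held 52.4 to 61.3. In the opposite direction, Nfil3, a repressor that competes with Dbp for the same sites, fell by 0.85 on the log2(FPKM + 1) scale (SE 0.18, limma adjusted p = 0.0400). It had FPKM of 5.91, 9.33 and 16 at day 7 and 3.22, 4.77 and 6.74 at day 14, so that the ranges overlapped.

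Of the 18 clock genes listed, 17 were tested, and 3 rose and 1 fell. With voom on reads the same 3 that rose were called and Nfil3 was not. At an unadjusted p below 0.05, 8 were higher and 2 lower. Their median difference was 0.37, against -0.018 over all tested genes, and it was positive under each of 5 other scalings of the samples (0.22 to 0.44). Per1, Per2 and Per3, the period repressors, differed by 0.80, 0.59 and 0.71, Nr1d2 by 0.58 and Tef, a relative of Dbp, by 0.47, none of them past the adjusted threshold (limma adjusted p = 0.200, 0.373, 0.160, 0.160 and 0.226). Among the drivers, Arntl had 0.389 to 1.22 FPKM at day 7 and 0.409 to 0.756 at day 14, a difference of -0.33 (limma adjusted p = 0.303), and Clock differed by -0.090. Summed over the list, FPKM ran from 117 to 169 at day 7 and from 191 to 232 at day 14, without overlap, and uninjured muscles held 199 to 239. This sum includes the called genes Dbp, Nr1d1 and Ciart, so that it partly restates their differences. The labels do not give the hour at which muscles were taken, so that time after injury and time of day cannot be told apart for these genes.

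Dbp and Ciart were called with each of the 12 libraries left out in turn and without day 7 replicates 3, 5 and 6 together. Dbp lost its call with the common sum (limma adjusted p = 0.114, range over its alternatives 5.92e-05 to 0.114), and both lost it with the replicate number as a block in the 12 samples alone (0.0603 for Dbp and 0.0598 for Ciart), a fit in which limma called 0 genes and 1911 had an unadjusted p below 0.05. Nr1d1 lost its call without day 7 replicate 3 or without day 14 replicate 3, 4 or 6 (limma adjusted p from 0.0509 to 0.0633), and without the 3 day 7 libraries together it differed by 0.63 (limma adjusted p = 0.0684, range over its alternatives 0.0101 to 0.393). For Nfil3 the call was lost without day 7 replicate 2, 3 or 4 or day 14 replicate 2, 3, 4 or 5 (limma adjusted p from 0.0535 to 0.108).

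**Figure D2:**
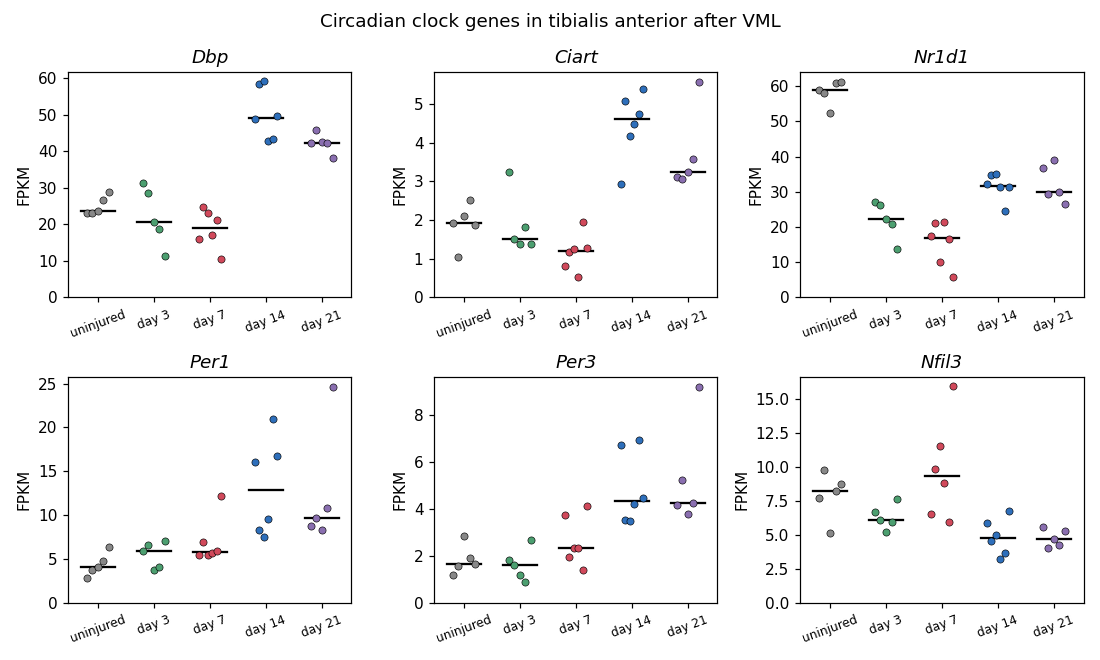
FPKM of 6 circadian clock genes in each sample of the 5 groups, with the group median as a bar. For Dbp, Ciart and Nr1d1 every day 14 sample lies above every day 7 sample, Per1 and Per3 overlap, and Nfil3 is lower at day 14.

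Clock and Arntl bind the E-box, whose canonical letters are CACGTG and read the same on both strands. The promoters of the 3 clock genes that rose are shown because these genes moved together, from 250 bases before to 50 after the start (RefSeq, GRCm38.p6), in lower case with each CACGTG in capitals. Ciart lies at chr3:95882179-95882478, minus strand, Dbp at chr7:45704997-45705296, plus strand, and Nr1d1 at chr11:98775328-98775627, minus strand.
Ciart: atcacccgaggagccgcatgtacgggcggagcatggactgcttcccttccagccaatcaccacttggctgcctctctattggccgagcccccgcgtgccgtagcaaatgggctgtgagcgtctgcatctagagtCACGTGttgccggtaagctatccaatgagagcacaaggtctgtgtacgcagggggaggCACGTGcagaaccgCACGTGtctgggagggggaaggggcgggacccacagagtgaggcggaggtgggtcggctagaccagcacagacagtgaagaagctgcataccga
Dbp: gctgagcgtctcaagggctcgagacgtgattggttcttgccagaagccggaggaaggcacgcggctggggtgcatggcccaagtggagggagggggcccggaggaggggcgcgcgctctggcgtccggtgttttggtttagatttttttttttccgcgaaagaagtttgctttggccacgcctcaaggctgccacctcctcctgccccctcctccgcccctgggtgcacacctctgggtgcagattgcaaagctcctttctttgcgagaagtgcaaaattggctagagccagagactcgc
Nr1d1: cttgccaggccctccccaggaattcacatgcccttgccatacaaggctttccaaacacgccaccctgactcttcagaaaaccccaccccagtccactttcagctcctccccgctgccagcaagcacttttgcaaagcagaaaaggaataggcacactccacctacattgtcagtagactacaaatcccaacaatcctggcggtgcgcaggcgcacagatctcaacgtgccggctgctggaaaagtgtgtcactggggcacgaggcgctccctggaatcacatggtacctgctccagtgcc
Ciart held 3 copies, starting 116, 58 and 44 bases before the start, and the windows of Dbp and Nr1d1 held none. A copy was present for 5 of the 15 clock genes with a promoter in the table (Ciart, Per1, Cry1, Tef and Bhlhe41), against 8.09% of all 27025 genes and 11.5% of the 10083 tested genes that have one. Among called genes with a promoter it was present for 1 of 12 that rose and 2 of 19 that fell. These matches describe letters in a window and no binding was measured.

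Several called genes that fell encode secreted or surface proteins of connective tissue, and they are described with the matrix lists to which some belong. Cthrc1, a protein secreted by activated fibroblasts (chr15:39076932-39087121), fell the most of the called genes, from FPKM of 7.0, 27.1 and 31.1 at day 7 to 0.746, 4.71 and 14.8 at day 14, against 0 to 1.09 in uninjured muscle. Its lowest day 7 value, in replicate 6, lay below the highest day 14 value, and the other 5 day 7 samples were above all day 14 samples. It fell by 2.20 on the log2(FPKM + 1) scale (SE 0.43, limma adjusted p = 0.0233). Lrrc15, a membrane protein of the same activated state, had FPKM of 1.07, 3.31 and 5.36 at day 7 and 0.0804, 0.371 and 2.58 at day 14 and fell by 1.39 (SE 0.24, limma adjusted p = 0.00906). Day 14 replicate 2 was the high sample among the day 14 values of Cthrc1, Lrrc15, Thbs2 and Fn1.

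Fn1, fibronectin, which cells lay down as the first scaffold of a wound (chr1:71585520-71653200), had FPKM of 20.1, 36.3 and 52 at day 7 and 6.76, 14.8 and 25.7 at day 14, against 1.81 to 4.57 in uninjured muscle. The difference was -1.34 ± 0.27 (SE) (limma adjusted p = 0.0238). Thbs2, a matricellular thrombospondin, had 2.80, 9.56 and 12.3 at day 7 and 2.13, 2.90 and 6.30 at day 14 and differed by -1.12 ± 0.24 (SE) (limma adjusted p = 0.0376). Both had 1 low day 7 sample, replicate 6, and the other 5 were above all day 14 samples. Of the 16 matricellular genes tested these 2 were called, 14 had a lower mean at day 14 and the median was -0.35. Postn, periostin, and Tnc, tenascin C, differed by -1.42 and -1.07 without passing the threshold (limma adjusted p = 0.177 and 0.166).

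Few collagens were called. A pair of minor collagens that decorate fibrils fell, Col16a1 from 3.06–12.6 to 1.40–4.61 FPKM (-1.04 ± 0.23 (SE), limma adjusted p = 0.0475) and Col12a1 from 0.553–3.49 to 0.111–1.05 (-0.83 ± 0.19 (SE), limma adjusted p = 0.0477), which are 2 of 11 interstitial collagens tested (median -0.37). The 10 fibrillar collagens tested had 9 lower means and a median of -0.62, but limma called 0 of them (6 at an unadjusted p below 0.05, all lower, and 0 with voom on reads). Col1a1, the main chain of collagen I, had FPKM of 110.1, 276 and 583 at day 7 and 61.9, 156 and 260.3 at day 14, and Col3a1 84.9, 187 and 368 and 46.7, 172 and 209.7. Their ranges overlapped, with differences of -1.04 ± 0.36 (SE) and -0.61 ± 0.35 (SE) (limma adjusted p = 0.235 and 0.482). In uninjured muscle Col1a1 was at 12.7 to 36.8, so that all 6 day 14 samples remained above it.

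Efemp2, fibulin-4 of the elastic fibre, fell without overlap from 8.49, 10.3 and 22.4 to 4.41, 5.45 and 8.22 FPKM (-1.0 ± 0.22 (SE), limma adjusted p = 0.0453), the only one called of 12 elastic fibre genes (10 with lower means, median -0.40). None of 17 genes of collagen processing was called (8 lower at an unadjusted p below 0.05, median -0.33), and Serpinh1, the collagen chaperone, and Pcolce, which helps cut procollagen, differed by -0.33 and -0.071. Of 12 matrix proteases and inhibitors 0 were called (7 lower at an unadjusted p below 0.05, median -0.51), with Mmp2, a gelatinase, at -0.38 and its partner Timp2 at -0.65. Among 8 leucine-rich proteoglycans 0 were called (2 lower at an unadjusted p below 0.05, median -0.45), and Bgn, biglycan, and Dcn, decorin, differed by -0.78 and -0.24. Voom on reads called none of these 3 lists either. Fibroblast identity genes had a median of -0.33 over 12, with 0 called by limma or voom (3 lower at an unadjusted p below 0.05), where Ly6a, a marker of resident progenitors, had 31.8 to 137 FPKM at day 7 and 41.1 to 84.7 at day 14, and Clec3b 18 to 100.2 and 39.1 to 93.1.

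Other called genes of connective tissue, named after their values were seen, fell as well. Olfml2b, a secreted matrix protein, had FPKM of 4.17, 13.6 and 17.6 at day 7 and 1.53, 4.46 and 7.09 at day 14 (-1.24 ± 0.25 (SE), limma adjusted p = 0.0238). Adam12, a membrane protease of activated mesenchymal cells, went from 0.372–2.98 to 0.0481–0.800, and Aebp1, a collagen-binding secreted protein, from 29.2–57.9 to 17.7–35.9. Twist1, a transcription factor of mesenchymal cells, had 2.43 to 5.77 at day 7 and 0.834 to 2.56 at day 14 (-0.92 ± 0.19 (SE), limma adjusted p = 0.0376). Pdgfc, a growth factor that acts on fibroblasts, was low at both times, at 0.426 to 1.48 and 0.0419 to 0.285, and did not overlap. Rcn1, a calcium-binding protein of the endoplasmic reticulum, went from 6.68–18.3 to 3.16–7.60.

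Serpina3n, Il33, Fzd2 and Tsku also fell without overlap. Serpina3n, a protease inhibitor induced in injured tissue, had FPKM of 3.02, 7.66 and 24.2 at day 7 and 0.848, 1.45 and 2.92 at day 14 and fell by 1.74 on the log2(FPKM + 1) scale (SE 0.35, limma adjusted p = 0.0238). Il33, an alarmin stored in the nuclei of stromal cells, had 1.20, 2.25 and 3.46 and 0.353, 0.766 and 0.997 and differed by -0.86 ± 0.17 (SE) (limma adjusted p = 0.0238). Fzd2, a Wnt receptor, had 1.71, 2.88 and 3.72 and 0.812, 1.13 and 1.62, and differed by -0.75 ± 0.14 (SE) (limma adjusted p = 0.0168). Tsku, a small secreted leucine-rich protein, went from 1.44–4.26 to 0.640–1.43. At day 14 Il33 and Fzd2 overlapped their uninjured ranges of 0.502 to 1.67 and 0.745 to 1.31, while Serpina3n and Tsku lay above theirs, 0.364 to 0.743 and 0 to 0.381.

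Cdkn2c, Sesn1, Fkbp5, Azin2 and Man1a2 fell without overlap and belong to no list. Cdkn2c, an inhibitor of cyclin-dependent kinases, had FPKM of 4.51 to 7.09 at day 7 and 2.15 to 4.15 at day 14, and Sesn1, a p53 target that restrains mTORC1, 4.06 to 8.33 and 2.34 to 3.90. Fkbp5, a co-chaperone induced by glucocorticoids, had 2.29 to 5.15 and 1.40 to 2.07, Azin2, an antizyme inhibitor, 1.21 to 1.93 and 0.402 to 0.899, and Man1a2, a mannosidase of the Golgi, 1.59 to 2.56 and 1.05 to 1.51. These differences were -0.69 ± 0.16 (SE) for Cdkn2c, -0.66 ± 0.15 (SE) for Sesn1, -0.64 ± 0.13 (SE) for Fkbp5, -0.55 ± 0.12 (SE) for Azin2 and -0.40 ± 0.084 (SE) for Man1a2, with limma adjusted p of 0.0475, 0.0475, 0.0238, 0.0475 and 0.0376, and each of the 5 calls was lost on leaving out at least 1 library. Further genes that fell, named after their values were seen, were Scd2, a fatty acid desaturase (from 6.31–22.5 to 4.93–7.13 FPKM), Stac2, an adaptor of muscle calcium channels (0.230–1.53 to 0–0.370), Prtn3, a neutrophil protease (0.0678–1.38 to 0–0.400), Efna4, an ephrin ligand (0.641–1.15 to 0.0563–0.821), Wbp1l (10.8–17.5 to 7.79–11.2), Pla2g4a, a phospholipase that releases arachidonic acid (0.264–0.822 to 0.0265–0.197), Gm48583 (10.9–32 to 5.93–12.1) and AC129539.1 (0.402–0.984 to 0–0.102, at most 10 reads).

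**Figure D3:**
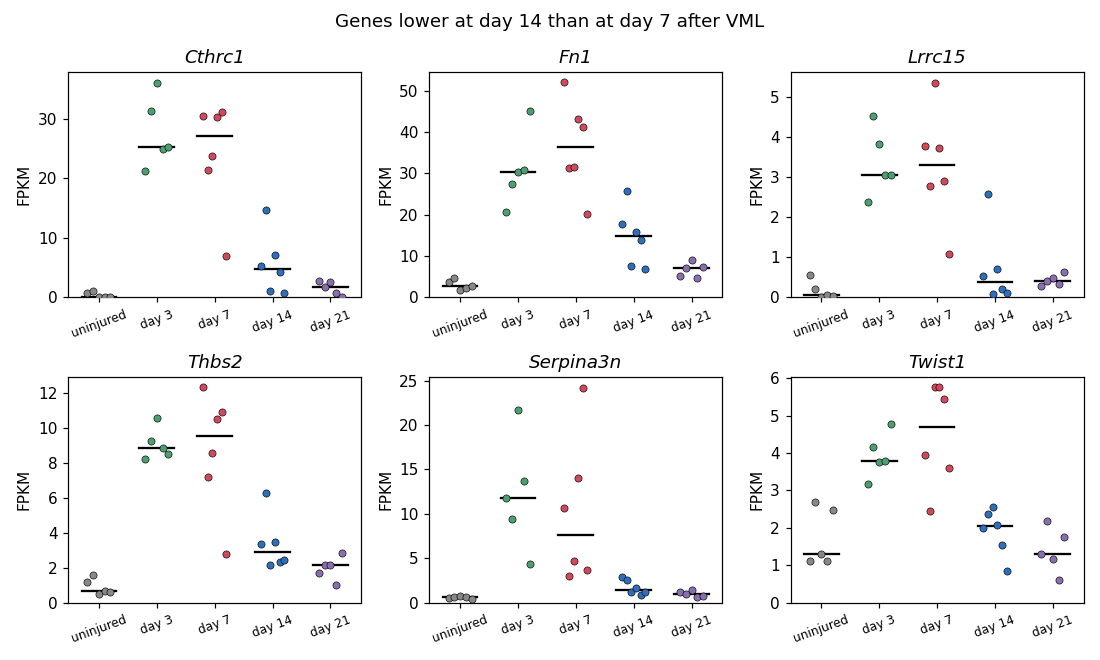
FPKM of 6 genes that fell, in each sample of the 5 groups, with the group median as a bar. The day 7 median lies above the day 14 median in all 6 genes, the Serpina3n groups of these days do not overlap, and the low day 7 sample of Cthrc1, Lrrc15, Fn1 and Thbs2 is replicate 6.

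Measured against the uninjured mean, 23 of the 32 genes that fell lay at day 14 between their day 7 mean and the uninjured mean, 8 lay past it and 1 moved away from it. Among the 17 that rose, 12 moved away from the uninjured mean, 3 went past it and 2 lay between. No test was made of these positions, since the uninjured samples enter the same fit. The shares over all tested genes were not computed, so that the counts cannot be called particular to the called genes.

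Outside the clock, the genes that rose were of mixed kinds. Ucp3 had FPKM of 10.7, 11.1 and 15.3 at day 7 and 20.4, 26.3 and 28.3 at day 14, against 30.2 to 41.4 in uninjured muscle and 6.08 to 15.4 at day 3. Its groups did not overlap and the difference was 0.99 ± 0.15 (SE) (limma adjusted p = 0.00394). It was the only one called of 23 genes of fatty acid oxidation, whose median was 0.22 and turned to -0.018 when the FPKM of each sample was brought to 1 common sum. Fhod1, a formin that assembles actin filaments, rose without overlap from 8.37, 9.42 and 10.4 to 12.2, 16.5 and 19 (0.71 ± 0.13 (SE), limma adjusted p = 0.0167). Both were called with each library left out in turn and without day 7 replicates 3, 5 and 6 together. With the common sum both lost the call (limma adjusted p = 0.130 for Ucp3 and 0.321 for Fhod1), and Fhod1 also with own totals, with the sum without the mitochondrial genome and with the 12 samples alone (0.115, 0.146 and 0.178). Over all alternatives the adjusted p ranged from 0.00143 to 0.130 for Ucp3 and from 0.00433 to 0.321 for Fhod1.

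Aldh3a1, an aldehyde dehydrogenase, had FPKM of 0.181, 0.735 and 2.13 at day 7 and 4.46, 5.54 and 6.97 at day 14 (6 to 279 reads), with 0 to 0.193 in uninjured muscle and 0.646 to 15.2 at day 21. It rose by 1.83 ± 0.34 (SE) (limma adjusted p = 0.0168), and without day 7 replicates 3, 5 and 6 it differed by 1.35 (limma adjusted p = 0.109, range over its alternatives 0.00635 to 0.109). Gm48395, a predicted gene (chr14:20215502-20221425), showed the largest increase, from 0, 5.98 and 15.3 to 26.3, 42.7 and 53.1 FPKM, 2.94 ± 0.49 (SE) (limma adjusted p = 0.00906). It had 0 reads in day 7 replicate 3 and at most 396 in a sample, and without those 3 libraries the difference was 1.66 (limma adjusted p = 0.0410, range over its alternatives 0.00188 to 0.216). Ighg2c, the constant region of IgG2c made by plasma cells, had 0.310, 1.65 and 2.82 and 4.83, 5.73 and 8.19 and rose by 1.54 ± 0.29 (SE) (limma adjusted p = 0.0169), against 0.743 to 6.47 at day 21. Without the 3 day 7 libraries it differed by 0.91 (limma adjusted p = 0.141, range over its alternatives 0.00749 to 0.218), and without day 14 replicate 6 its adjusted p was 0.0518.

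Among 4 B cell genes tested, all 4 had higher means at day 14 (median 0.66) and 0 were called by limma or voom (2 higher at an unadjusted p below 0.05). Igkc, the kappa light chain, spread from 0 to 18 FPKM at day 7 and from 1.91 to 95.5 at day 14, a difference of 1.96 ± 0.66 (SE) (limma adjusted p = 0.230), and Ighm, the IgM heavy chain, from 5.22 to 21.7 and 7.78 to 41.5 (0.94 ± 0.34 (SE), limma adjusted p = 0.266). The other genes that rose by the naming rule overlapped and were low: Ces2c, a carboxylesterase, went from 0–2.32 to 1.70–6.88, Bpifb1, a secreted lipid-binding protein, from 0–1.44 to 0.306–5.40, Lbx2, a homeobox factor, from 0.126–2.51 to 2.41–5.66, and Gm12185 from 0.0565–1.38 to 0.825–3.80. Named after their values were seen, Otog, Napb, Mdm4, Gm13583 and Gm12153 rose by 0.93, 0.94, 0.78, 0.96 and 0.55 on the log2(FPKM + 1) scale, of which Mdm4 restrains p53 and Napb serves membrane fusion.

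Of the 49 genes, 12 were called with each library left out in turn: Dbp, Ciart, Ucp3, Gm48395, Aldh3a1, Fhod1 and Otog, which rose, and Lrrc15, Pdgfc, Fzd2, Stac2 and AC129539.1, which fell. The other 37 lost the call without at least 1 library. Cthrc1 lost it without day 7 replicate 4 or 5 or day 14 replicate 3 or 6 (limma adjusted p from 0.0548 to 0.0653), as did Fn1 without the same libraries (0.0569 to 0.0748). Serpina3n lost it without day 7 replicate 4 or 5 or day 14 replicate 3, 4, 5 or 6 (0.0580 to 0.0653). Without day 7 replicates 3, 5 and 6 the differences were -2.5 for Cthrc1, -1.52 for Lrrc15, -1.58 for Fn1, -1.38 for Thbs2 and -1.75 for Serpina3n (limma adjusted p = 0.0137, 0.00457, 0.0142, 0.00457 and 0.0149). With limma on the 12 samples alone all 32 genes that fell lost the call, as 0 genes were called lower (1142 at an unadjusted p below 0.05 in either direction). For Cthrc1, Lrrc15, Fn1 and Thbs2 the adjusted p was then 0.393, 0.334, 0.393 and 0.425, with ranges over all alternatives of 0.00273 to 0.393, 0.000243 to 0.334, 0.00697 to 0.393 and 0.000430 to 0.425. Over the 37 genes above the adjusted p on leaving out a single library was at most 0.142.

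**Figure D4:**
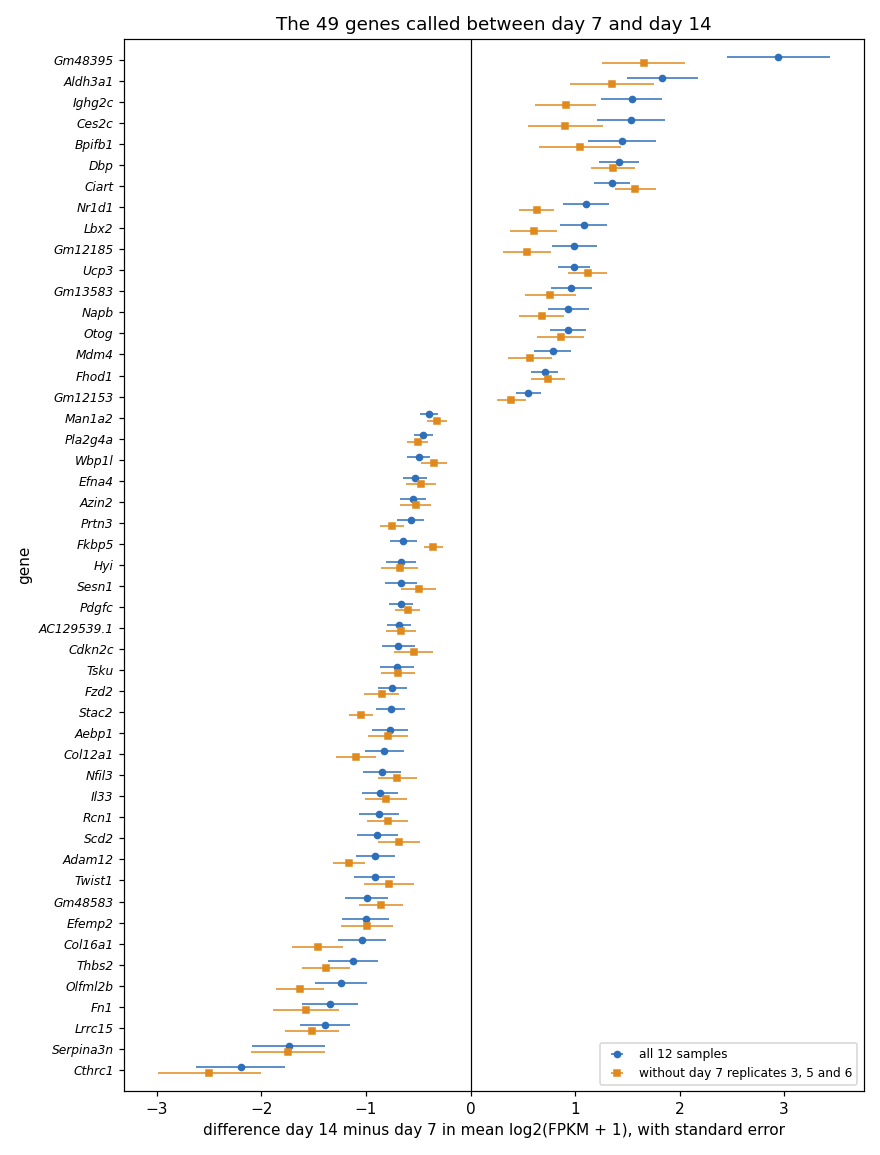
Difference in mean log2(FPKM + 1), day 14 minus day 7, of the 49 called genes with its standard error, with all 12 samples of these days (blue circles) and without day 7 replicates 3, 5 and 6 (orange squares). The standard errors come from fits that also held the uninjured, day 3 and day 21 samples. All 49 keep their direction, while Cthrc1, Fn1 and Thbs2 are more negative and Gm48395, Ighg2c and Nr1d1 nearer to 0 without those libraries.

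Macrophage genes had lower means at day 14, with a wide spread at day 7, and none of the 22 listed was called. All 22 means were lower, with a median of -1.23, 18 of them at an unadjusted p below 0.05, and limma and voom called 0. Summed over the list, FPKM was 130.0, 535 and 4304 at day 7 and 102, 202 and 275 at day 14 (lowest, median and highest), and 45.8 to 58.6 in uninjured muscle. Lyz2, lysozyme, had 36.7, 221 and 1682 at day 7 and 34.1, 68.4 and 82.4 at day 14 (-1.86 ± 0.56 (SE), limma adjusted p = 0.164), C1qa, a chain of complement C1q, 17.1, 64 and 419 and 15.2, 26.9 and 37.1 (-1.53 ± 0.45 (SE), limma adjusted p = 0.158). Both overlapped through day 7 replicate 6, the lowest, while replicate 5 was the highest. Without day 7 replicates 3, 5 and 6, 10 of the 22 were called lower, Lyz2, C1qa, C1qb, C1qc and Csf1r among them, with a median of -1.22. Without replicate 5 alone 0 of the 22 were called, the median was -0.75, and Lyz2 and C1qa differed by -1.28 and -1.04 (limma adjusted p = 0.400 and 0.387). Without replicate 6 alone 8 were called. Spi1, the transcription factor PU.1 of myeloid cells, had 2.24, 4.03 and 38.5 at day 7 and 1.5, 2.11 and 4.78 at day 14 and differed by -1.04 ± 0.43 (SE) (limma adjusted p = 0.329).

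Of 12 genes of scar-associated macrophages 0 were called (5 lower at an unadjusted p below 0.05, median -0.52), with Ctsd, a lysosomal protease, at 183 to 748 FPKM and 141 to 328, and Lgals3, galectin-3, at 12.9 to 300.4 and 22.8 to 44.5. In 9 genes of resident macrophages the median was -0.45 with 0 called and 5 lower at an unadjusted p below 0.05, although Cbr2 and Retnla spread widely (-0.36 and 0.16). Without day 7 replicates 3, 5 and 6 this median was -0.15, and Cbr2 and Retnla differed by 0.76 and 1.40. Neutrophil genes had a median of -0.87 over 4 tested, 0 called and 2 lower at an unadjusted p below 0.05. S100a8, a calcium-binding alarmin of neutrophils, had 0.423, 11.3 and 45.9 FPKM at day 7 and 1.30, 2.90 and 4.16 at day 14, and S100a9 1.01, 3.97 and 41.6 and 0, 2.16 and 7.93. For MHC class II all 7 means were lower with 0 called (2 at an unadjusted p below 0.05, median -0.49), and Cd74, the invariant chain, and H2-Eb1 differed by -0.55 and -0.46. Voom called none of these lists' genes. Without day 7 replicate 5 the medians were -0.27 for scar-associated macrophages, -0.29 for resident macrophages, -0.45 for neutrophils and -0.31 for MHC class II.

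Among 18 chemokine ligands 0 were called by limma or voom, with 8 lower and 1 higher at an unadjusted p below 0.05 and a median of -0.49, or -0.17 without day 7 replicate 5. Ccl8, a monocyte chemokine, had 10.7, 26.3 and 92.6 FPKM at day 7 and 3.03, 9.41 and 16.3 at day 14 (-1.62 ± 0.43 (SE), limma adjusted p = 0.111), whereas Cxcl14 had 22.5 to 40.0 and 20.7 to 32.9, with a difference of 0.011. Complement genes had 10 lower means of 10 with 0 called (4 at an unadjusted p below 0.05, median -0.41), with Serping1 and C1s1 at -0.095 and -0.18. Interferon response genes had a median of -0.13 over 18 with 0 called (2 lower at an unadjusted p below 0.05), and Bst2 and Isg15 differed by -0.029 and -0.15. This median was positive without day 7 replicate 4 (0.067) or 5 (0.022). Of 17 T and NK cell genes only 5 reached the level needed for the test, with 0 called, 0 at an unadjusted p below 0.05 and a median of -0.062. Trbc2, of the T cell receptor, had 0 to 3.83 FPKM at day 7 and 0 to 1.52 at day 14, and Gzma, a granzyme, 0 to 4.39 and 0.590 to 1.97. Voom called none of the genes of these lists.

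Genes of cell division were called in neither direction by limma or voom. The 23 mitosis genes tested all had lower means (median -0.37, 3 at an unadjusted p below 0.05), and 21 of 24 genes of DNA replication did (median -0.22, 2 at an unadjusted p below 0.05). Ube2c, a ubiquitin-conjugating enzyme of mitosis, had 2.95, 3.82 and 21.3 FPKM at day 7 and 3.06, 3.82 and 4.84 at day 14, and Ccnb2, cyclin B2, 0.843, 2.17 and 18.2 and 0.759, 1.71 and 2.97. Pcna, the replication clamp, and Rrm2, of ribonucleotide reductase, differed by -0.31 and 0.19. Day 7 replicate 5 was the highest for Ube2c, Ccnb2 and Pcna. Without it the median of mitosis was -0.042 and that of DNA replication turned to 0.046, and without replicates 3, 5 and 6 together they were -0.21 and -0.052.

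**Figure D5:**
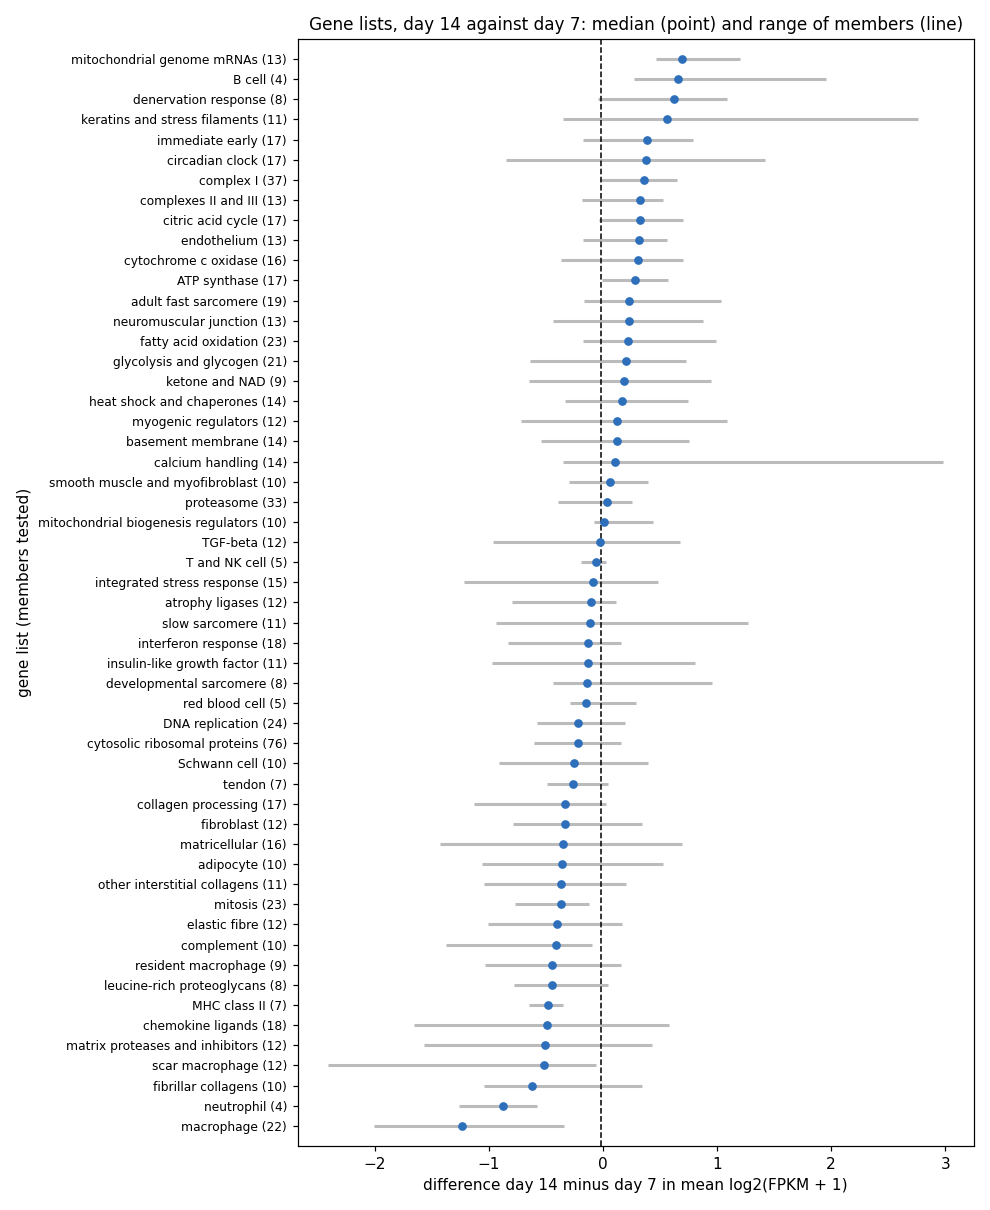
Median (point) and range (line) over the tested members of 54 gene lists of the difference in mean log2(FPKM + 1), day 14 minus day 7, with the median of all tested genes as a dashed line. Macrophage, neutrophil and fibrillar collagen lists lie lowest and mitochondrial genome mRNAs highest, and the medians of 12 lists change sign under another scaling.

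Under the other scalings of the samples, most often the common sum, the medians of 12 lists changed sign, and the counts of higher and lower means given for these lists hold for the FPKM as deposited. Leaving out 1 library moved the medians of 7 (day 14 replicate 4) to 26 (day 7 replicate 5) of the 54 lists by over 1.5 times, sign changes included, and changed the sign in at most 5. The common sum also took the median of all tested genes to -0.20. The median as reported and the most opposite one were, for basement membrane 0.12 and -0.055, smooth muscle and myofibroblast 0.062 and -0.073, TGF-beta -0.029 and 0.013, myogenic regulators 0.12 and -0.069, adult fast sarcomere 0.23 and -0.013, calcium handling 0.10 and -0.13, fatty acid oxidation 0.22 and -0.018, glycolysis and glycogen 0.20 and -0.044, mitochondrial biogenesis regulators 0.0098 and -0.15, ketone and NAD 0.19 and -0.044, heat shock and chaperones 0.17 and -0.057 and proteasome 0.033 and -0.22.

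Genes of regenerating and denervated muscle split the day 7 samples and were not called. Krt18 had FPKM of 0.0408, 47.1 and 381 at day 7 and 71.8, 130.4 and 176 at day 14, and Sln, sarcolipin, which inhibits the calcium pump, 0.401, 247 and 972 and 334, 588 and 686. Their differences of 2.76 ± 0.95 (SE) and 2.98 ± 1.03 (SE) did not pass (limma adjusted p = 0.237 and 0.237). The low day 7 values were those of replicates 3, 5 and 6 for both. Without these 3 the differences turned to -0.33 and -0.31. Chrna1, the acetylcholine receptor subunit that spreads over fibres after denervation, had 6.21, 43.6 and 70.5 and 24.4, 50.5 and 67.8 (0.68 ± 0.53 (SE), limma adjusted p = 0.615, and -0.48 without the 3), against 2.93 to 5.11 in uninjured muscle. Of 8 denervation response genes 0 were called by limma or voom (1 higher at an unadjusted p below 0.05, median 0.62, 0.33 without day 7 replicate 3, 0.37 without replicate 6 and -0.39 without the 3), with Myog, myogenin, at 1.5, 61.3 and 121 and 38.4, 53.7 and 84.4, and Gadd45a at 9.42, 69.5 and 192 and 57, 105 and 162.

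The 8 sarcomere genes of development had a median of -0.14 with 0 called and 0 at an unadjusted p below 0.05. Mybph and Actc1, cardiac actin, which regenerating fibres express, differed by 0.83 and 0.95. Myh3, embryonic myosin, had 0.436 and 0.967 FPKM in day 7 replicates 3 and 6 and 20.1 to 49.7 in the other 4, against 3.70 to 14.6 at day 14. Without replicates 3, 5 and 6, Myh3 and Myl4, an embryonic light chain, were called lower and the median was -1.10. In 12 myogenic regulators 0 were called (1 higher and 1 lower at an unadjusted p below 0.05, median 0.12), with Des, desmin, at -0.11 and Myf6 at -0.029. Neuromuscular junction genes had 12 higher means of 13 (median 0.23, 0 called, 1 higher and 1 lower at an unadjusted p below 0.05), where Chrnb1 had 14.6 to 45.5 FPKM at day 7 and 33.5 to 51.3 at day 14. Without day 7 replicates 3, 5 and 6 this median was -0.0018 and Chrnb1 differed by 0.088. The median of the myogenic regulators was then -0.28. Voom called none of these genes.

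Adult fast sarcomere genes had 17 higher means of 19, a median of 0.23 and 0 called (2 higher at an unadjusted p below 0.05), with Acta1 at 0.19 and Mylpf, the fast regulatory light chain, at 0.57. This median turned to -0.013 under rescaling to a common sum. Slow sarcomere genes had a median of -0.11 over 11 with 0 called and 0 at an unadjusted p below 0.05, Tnnt1 differing by 0.20 and Mybpc1 by -0.075. Calcium handling had 0 called of 14 (median 0.10, 1 higher at an unadjusted p below 0.05), with Atp2a1, the fast calcium pump, at 0.23 and Pvalb, parvalbumin, at 0.48. Keratins and stress filaments had a median of 0.56 over 11 with 0 called (3 higher at an unadjusted p below 0.05), Vim, vimentin, at -0.31 and Ankrd2, a stretch sensor, at 0.56. Without day 7 replicates 3, 5 and 6 this median turned to -0.20 and Ankrd2 to -0.29. Among 12 atrophy genes 0 were called (1 lower at an unadjusted p below 0.05, median -0.11), with Trim63, the ligase MuRF1, at -0.30 and Foxo4 at -0.43. Voom called none of these genes either.

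Respiratory chain mRNAs had higher means at day 14 without a call. Of 37 complex I genes 36 had higher means (median 0.36, 4 at an unadjusted p below 0.05), of 13 in complexes II and III 11 (median 0.33, 1), of 16 cytochrome c oxidase genes 11 (median 0.31, 0) and of 17 ATP synthase genes 16 (median 0.28, 0), and limma and voom called 0 in each. Their medians stayed above 0 under each of 5 other scalings, with values down to 0.038. Without day 7 replicate 5 alone they were 0.19 for complex I, 0.14 for complexes II and III, 0.14 for cytochrome c oxidase and 0.11 for ATP synthase. Day 7 replicates 1 and 6 and day 14 replicates 1 and 6 also moved at least 1 of these medians by over 1.5 times, as did day 7 replicate 4 for ATP synthase, and the lowest over all 12 libraries was that without day 7 replicate 5 in each of the 4. All 13 mRNAs of the mitochondrial genome had higher means (median 0.69, 2 at an unadjusted p below 0.05, 0 called by limma or voom), with mt-Co1 at 10958, 17929.9 and 62931 FPKM at day 7 and 22459, 34834 and 56097 at day 14 and mt-Cytb at 9779.8, 16616 and 58902 and 14639, 34299 and 48271. Day 7 replicate 6 was above the day 14 samples for both, and without it the median of the 13 was 1.06.

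No single subunit of the chain was called. Ndufa2 and Ndufa4 of complex I differed by 0.16 and 0.27, Uqcr10 and Uqcr11 of complex III by 0.33 and 0.33, Cox6a2 and Cox8b, the muscle forms of cytochrome c oxidase subunits, by 0.37 and 0.49, and Atp5a1 and Atp5b by 0.24 and 0.21. The citric acid cycle had 16 higher means of 17 (median 0.32, and 0.17 without day 7 replicate 5, 0 called by limma or voom, 4 higher at an unadjusted p below 0.05), and Mdh1 and Mdh2, the malate dehydrogenases, differed by 0.70 and 0.34. Glycolysis and glycogen genes had a median of 0.20 over 21 with 0 called or at an unadjusted p below 0.05 (voom called 0), Aldoa at 0.31 and Eno3 at 0.44. The regulators of mitochondrial biogenesis had a median of 0.0098 over 10 with 0 called by limma or voom (1 higher at an unadjusted p below 0.05), with Perm1 at 0.44 and Esrra at -0.0017.

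The metabolic genes that the study followed did not pass. Nmrk2, a kinase of the NAD salvage pathway in muscle, had FPKM of 15.6, 38.2 and 47.7 at day 7 and 51.1, 65.7 and 77.2 at day 14, so that the days did not overlap, and differed by 0.94 ± 0.26 (SE) (limma adjusted p = 0.127). Both days were below the uninjured muscles, at 175 to 237. Pfkfb3, which drives glycolysis, had 1.62, 3.26 and 5.60 and 3.17, 5.35 and 6.12 (0.48 ± 0.29 (SE), limma adjusted p = 0.508), and Bdh1, a ketone body enzyme, 1.30, 1.91 and 5.88 and 1.49, 2.21 and 4.62 (0.054 ± 0.33 (SE), limma adjusted p = 0.961). Of 9 ketone and NAD genes tested 0 were called by limma or voom (1 higher and 1 lower at an unadjusted p below 0.05, median 0.19), Oxct1 differing by 0.36.

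Vessel, nerve and other tissue markers gave no call by limma or voom. Endothelial genes had 12 higher means of 13 (median 0.31, 4 higher at an unadjusted p below 0.05), Cdh5, VE-cadherin, at 9.999 to 34.2 FPKM and 23.9 to 62.1 and Eng, endoglin, at 11.2 to 30.9 and 19.5 to 42.5. Basement membrane genes had 10 higher of 14 (median 0.12, 4 higher and 1 lower at an unadjusted p below 0.05), with Col4a1 and Col4a2, the chains of its main collagen, at 0.70 and 0.75, and this median turned to -0.055 under rescaling to a common sum. Schwann cell genes had a median of -0.26 over 10 with 0 at an unadjusted p below 0.05, and 0.045 without day 7 replicate 6. Mbp, myelin basic protein, had 0.802, 1.54 and 52.1 FPKM at day 7 and 0.913, 1.64 and 4.32 at day 14, and Pmp22, another protein of peripheral myelin, 9.68, 18.2 and 265 and 9.08, 16.4 and 26.4, with day 7 replicate 6 highest for both.

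Adipocyte genes had a median of -0.36 over 10 (2 lower at an unadjusted p below 0.05), with Fabp4 at 0.5 and Car3 at 0.52, tendon genes -0.26 over 7 (0), with Thbs4 at -0.34 and Fmod at -0.49, and red blood cell genes -0.15 over 5 (0), with Hba-a1 at 0.16 and Hbb-bs at -0.20. Smooth muscle and myofibroblast genes had a median of 0.062 over 10 (1 lower at an unadjusted p below 0.05), and Acta2, smooth muscle actin, the usual marker of myofibroblasts, had 43.3, 67.4 and 109.6 FPKM at day 7 and 45.4, 72.7 and 119.9 at day 14. The TGF-beta list had a median of -0.029 over 12 (1 higher and 1 lower), with Ltbp3 and Ltbp4, which hold the latent factor, at -0.043 and 0.68, and the insulin-like growth factor list -0.13 over 11 (1 lower), with H19 at 133 to 2669 and 775 to 1212 and Igfbp7 at 0.45. Limma and voom called 0 in each of these 6 lists.

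Immediate early genes had 15 higher means of 17 (median 0.39, 1 higher at an unadjusted p below 0.05), with Jun at 0.28 and Nr4a1 at 0.79. Their summed FPKM split the day 14 samples, with 363, 458 and 364 in replicates 1, 5 and 6. Replicates 2, 3 and 4 of day 14 held 166, 151 and 159, against 155 to 342 at day 7. Without day 7 replicates 3, 5 and 6 the median was 0.40, Jun was at -0.21 and Nr4a1 at 1.44. Cytosolic ribosomal proteins had 69 lower means of 76 (median -0.22, 6 lower at an unadjusted p below 0.05), with Rplp1 at -0.40 and Rpl36 at -0.045. Summed over this list, FPKM was 7958 in day 14 replicate 1 and 16081 to 23938 in the other day 14 samples. Day 7 samples held 12068 to 22908. Without day 14 replicate 1 Rpl36 differed by 0.24, while Rplp1 stayed between -0.55 and -0.19 with any 1 library left out. The integrated stress response had a median of -0.090 over 15 (2 lower), with Atf4 at 0.093 and Atf5 at 0.073, heat shock proteins and chaperones 0.17 over 14 (2 higher), with Hsp90ab1 at 0.11 and Cryab at 0.42, and the proteasome 0.033 over 33 (1 lower), with Psmb5 at 0.25 and Psmc5 at 0.25. None of these genes was called by limma or voom. The part that the libraries standing apart at day 7 play in the list medians was not tested beyond leaving them out.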

How the data were processed

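Polyadenylated mRNA was sequenced. The authors aligned reads with HISAT2 2.0.5 and counted them per gene with featureCounts 1.5.0-p3 (from the submitters' processing notes), and deposited FPKM of 54532 genes with gene lengths. Their genome build is not given in the sources used here, and 98.3% of 54409 genes had the coordinates of GENCODE M21 on GRCm38. FPKM times gene length gave whole reads in 100% of values (tolerance 0.02 of a read), and the FPKM denominators were 0.810 to 1.44 times the samples' own totals at day 7 and 0.810 to 1.33 at day 14.

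FPKM was transformed to log2(FPKM + 1) and genes that reached an FPKM of 0.5 in 5 or more samples entered a limma model (version 3.58.1, R 4.3.3) of all 27 samples, with a mean per group and a variance trend. The contrast was day 14 minus day 7, tested on both sides and adjusted by Benjamini and Hochberg over 14630 genes, with calls at 0.05. The fit was tested on simulated data with independent normal noise and the same spread per gene in every sample. That setting does not hold libraries that stand apart, as at day 7, so it does not bear on the calls made with them. Groups and replicate numbers came from sample titles. The comparison, the 54 gene lists and the rule for names were chosen with earlier results of these data known. The rule named the 12 largest called increases and decreases (first those without overlap and with a mean FPKM of at least 1), up to 4 called members of each list or else its 2 most abundant, and 9 genes central to the study. Some genes are not reported here. Alternatives changed the pseudocount (0.1 or 0.5), filter, scaling, weights, samples and replicate block, and voom was run on recovered reads. Motifs and figures used Python 3.11.15, pandas 2.3.3, numpy 2.4.6 and matplotlib 3.10.9.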

Additional observations from a re-analysis of the deposited data

Results flagged for a closer look

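Within the 6 samples of a day, 12 of 302 combinations of named gene and day had 1 sample set apart from the others by more than Dixon's 95% critical value, where chance flags about 1 in 20. Of these, 6 were day 7 replicate 5, as the highest sample. It held 748 FPKM of Ctsd, 41.6 of S100a9, 34.3 of Pcna, 21.3 of Ube2c, 18.2 of Ccnb2 and 8.33 of Sesn1. Day 7 replicate 6 was the lowest for Cthrc1, at 7.0, and without it the difference between the days was -2.5. Day 7 replicate 3 was the lowest for Cdh5, at 9.999. Day 7 replicate 4 was the highest for Igkc, at 18. At day 14, replicate 5 was the lowest for Nr1d1, at 24.6, and replicate 4 the lowest for Cxcl14, at 20.7. AC129539.1 was above 0 at day 14 in replicate 2 alone, at 0.102.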

How the results depend on the processing

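All 49 called genes kept their direction under all 29 alternatives in which they were tested, and the calls depended on the choices. Against 49 called (17 higher, 32 lower), there were 18 (6, 12) with a pseudocount of 0.1, 34 (14, 20) with 0.5, 11 (5, 6) without a filter on low values, 65 (27, 38) after quantile normalization, 17 (7, 10) with the samples' own totals of reads, 5 (1, 4) with FPKM rescaled to a common sum and 11 (6, 5) with that sum taken without the mitochondrial genome. There were 35 (17, 18) with voom on reads, 5 (5, 0) with limma on the 12 samples alone (1142 at an unadjusted p below 0.05) and 141 (27, 114) without day 7 replicates 3, 5 and 6 together, and the last and the sum without the mitochondrial genome were chosen after seeing the data. With 1 library left out, calls ranged from 16 to 151, from 8 to 38 higher and from 7 to 113 lower. Without day 7 replicate 4, 5 or 6 they numbered 20, 21 and 151, and without day 14 replicate 3, 4, 5 or 6 they numbered 16, 16, 25 and 18. The median difference over all genes was -0.018, and -0.20 with the common sum and -0.12 with own totals. The cause of the other changes was not tested.

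The labels do not say that a replicate number stands for an animal or a day. The column names carry a letter, and names with the same letter are numbered in sequence through the groups. The letters follow the replicate numbers except in day 21 replicate 4, which carries the letter of replicate 6 at day 7 and day 14. What the letter stands for is not given. Same-numbered samples deviated together in 5 of 6 pairs (correlations 0.17 to 0.57), and these 5 day 14 samples correlated best with their own number, a hint from the data. Replicate 2 had a correlation of 0.09, below the minimum of 0.1 set for every pair, so that the numbers were not taken as pairs. With the replicate number as a block 50 genes were called (19 higher, 31 lower), 39 of them among the 49. That block placed day 21 replicate 4 by its number and not by its letter, and a block by letter was not tested. With the block in the 12 samples alone limma called 0, 0 higher and 0 lower, with 1911 at an unadjusted p below 0.05.

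Changes of sign were found only for named genes that were not called. They were, with a common sum, Rrm2 -0.053, Cxcl14 -0.23, Gzma -0.23, Clec3b -0.080, Acta2 -0.19, Acta1 -0.056, Tnnt1 -0.040, Atp2a1 -0.023, Ndufa2 -0.085, Atp5b -0.040, Atp5a1 -0.011, Atf4 -0.15, Atf5 -0.17, Hsp90ab1 -0.14, Psmc5 -0.0023, Hba-a1 -0.082, Bdh1 -0.10. With the common sum without the mitochondrial genome they were Cxcl14 -0.081, Gzma -0.095, Acta2 -0.036, Atf5 -0.015, and with own totals Cxcl14 -0.14, Gzma -0.14, Acta2 -0.093, Atf4 -0.055, Atf5 -0.071, Hsp90ab1 -0.043, Bdh1 -0.041. Quantile normalization gave Ltbp3 0.0090, Acta1 -0.36, Aldoa -0.12, Esrra 0.043, Hsp90ab1 -0.038, and sample quality weights Cbr2 0.28, Cxcl14 -0.018, Gzma -0.24, Clec3b -0.14, H19 -0.20, Mybph -0.075, Jun -0.039, Rpl36 0.11, Hbb-bs 0.045, Bdh1 -0.038. Without day 7 replicates 3, 5 and 6 the values were Ube2c 0.0075, Cbr2 0.76, Cxcl14 -0.028, Gzma -0.54, Isg15 0.12, Ly6a 0.24, Clec3b -0.10, H19 -1.09, Pmp22 0.11, Mbp 0.36, Actc1 -0.042, Mybph -1.16, Tnnt1 -0.32, Chrna1 -0.48, Gadd45a -0.63, Myog -0.28, Ankrd2 -0.29, Esrra 0.12, Jun -0.21, Hsp90ab1 -0.18, Rpl36 0.25, Hbb-bs 0.59, Sln -0.31, Krt18 -0.33. With 1 library left out the ranges were Ube2c -0.48 to 0.016, Rrm2 -0.12 to 0.61, Lgals3 -0.70 to 0.19, Retnla -0.30 to 0.68, Cxcl14 -0.054 to 0.11, Gzma -0.20 to 0.29, Trbc2 -0.24 to 0.22, Bst2 -0.21 to 0.22, Isg15 -0.45 to 0.22, Serping1 -0.23 to 0.097, C1s1 -0.37 to 0.0048, Pcolce -0.21 to 0.056, Clec3b -0.15 to 0.33, Des -0.26 to 0.013, Acta2 -0.091 to 0.19, Ltbp3 -0.16 to 0.084, Myf6 -0.29 to 0.19, Mybpc1 -0.28 to 0.12, Tnnt1 -0.30 to 0.57, Ndufa2 -0.00030 to 0.42, Esrra -0.12 to 0.12, Atf4 -0.043 to 0.21, Atf5 -0.058 to 0.18, Hsp90ab1 -0.0090 to 0.18, Rpl36 -0.23 to 0.24, Hba-a1 -0.31 to 0.57, Hbb-bs -0.61 to 0.18, Bdh1 -0.084 to 0.26. Depth limits the genes with few reads, among them AC129539.1, Gm48395, Ighg2c and Lbx2.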
